A study of Mus musculus with 4 samples.

Results

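Mitochondrial complex III and complex IV are followed here through their messenger RNAs in mouse embryo explants kept with or without CCCP, an uncoupler that carries protons across the inner mitochondrial membrane and so dissipates the gradient the respiratory chain builds. The genes were chosen by symbol, as those whose names start with Uqcr, Uqcc, Cox4 to Cox8 or Cox10 to Cox19, together with Cox20, Sco1, Sco2, Surf1, Cyc1, Cycs, Bcs1l, Ttc19 and Lyrm7, and without the 4 rows whose names carry the pseudogene mark -ps. The rule gave 47 of the 49997 genes counted and used no measured value, although it was chosen with earlier results of these data known. They comprise 9 subunits of complex III, 10 subunits of complex IV found in most tissues, cytochrome c (Cycs), Cox7a2l, 6 assembly factors of complex III, 12 assembly factors of complex IV and 8 genes grouped as isoforms of complex IV subunits. Of the latter, Cox6c2 is a pseudogene in the RefSeq annotation although its name does not carry the mark, and the others are tissue isoforms.

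Complex III takes electrons from ubiquinol, passes them through cytochrome b, the Rieske iron-sulfur protein and cytochrome c1 to soluble cytochrome c, and pumps protons. Complex IV takes them from cytochrome c through copper and haem centres to oxygen. Cytochrome b and the core subunits COX1, COX2 and COX3 are made inside the mitochondrion, the other subunits come from the nucleus, and dedicated assembly factors insert copper, haem and the iron-sulfur cluster. Several complex IV subunits have alternative isoforms used in lung, heart and skeletal muscle, or testis.

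The explants were pieces of the aorta-gonad-mesonephros region (AGM), where the first haematopoietic stem cells form, from C57BL/6J embryos. All were cultured on filters at the surface of MyeloCult medium with hydrocortisone for 48 hours, 2 libraries untreated and 2 with 5 µM CCCP. The growth protocol names E10.5 and E11.5 embryos and the series design E10.5 alone. The labels give the cell type as embryonic haematopoietic stem cells and the series design as their c-kit+ form, whereas the extraction protocol speaks of RNA from the explants. Of 10 markers of blood stem and progenitor cells, Kit lay between 47.6 and 63.2 CPM (counts scaled by library size with the TMM method), Ptprc between 3.39 and 6.85, Mecom between 44.1 and 58.9, Itga2b between 11.6 and 32.5, Runx1 between 8.87 and 20.1, Gata2 between 9.39 and 14.2 and Gfi1 between 0.107 and 0.247. In the same libraries the endothelial gene Cdh5 lay between 134 and 176 and the pericyte gene Pdgfrb between 153 and 212. Following the extraction protocol, the samples are described as explants. Nothing in the labels says that replicates came from separate embryos or cultures, so p-values measure the spread between these libraries, which may be technical. In such bulk RNA, fewer cells of a type and less RNA per cell cannot be told apart.

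The libraries held 37360968 to 48827826 counted reads. With edgeR's quasi-likelihood test and an adjusted p under 0.05, no gene was called, 0% of the 19837 tested. The smallest adjusted p of any gene was 0.122, and the median log2 fold change (CCCP over untreated) over all genes tested was -0.0077. Liver marker transcripts stood apart between the groups, with a summed level of 1813 and 1031 CPM untreated against 50.7 and 109 CPM with CCCP, and all 11 had lower levels with CCCP. Erythroid markers summed to 2633 and 3238 CPM untreated and 2974 and 5026 CPM with CCCP, with 7 of 9 above 0 and a median log2 fold change of 0.49, which was 5 of 9 and 0.047 without CCCP replicate 2 and 7 of 9 and 0.24 without untreated replicate 1. The summed levels were 388 and 502 against 386 and 376 CPM for endothelial markers (5 of 6 below 0) and 176 and 188 against 145 and 171 CPM for haematopoietic markers (7 of 9 tested below 0). Without untreated replicate 2, the endothelial markers had 3 of 6 above 0 and a median log2 fold change of -0.022. The haematopoietic markers then had 5 of 9 above 0 and a median of 0.054. Without untreated replicate 1 the medians were -0.42 and -0.24. The part of these differences in the genes below was not tested.

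Of the 47 genes, 44 had enough reads to be tested. None of the 44 passed in edgeR with the group as the sole term, where adjusted p-values ran from 0.228 for Ttc19 to 0.986 for Cox6b2. None passed in DESeq2 either, which called 594 of the 17914 genes it gave an adjusted p, or 3.32%, and whose smallest value among these 44 was 0.0601, for Ttc19. With no filter beyond 1 count, edgeR called 3.43% of 32261 genes and 3 of the 44, Ttc19 at an adjusted p of 0.011, Cox7a2l at 0.0339 and Uqcrc1 at 0.0394. At an unadjusted p under 0.05 in edgeR, 9 of the 44 were higher with CCCP, against 5.45% of all genes, and 1 was lower, against 9.16% of all genes. By fold change 38 of the 44 were higher with CCCP and 6 lower, with a median log2 fold change of 0.26. The 2 CCCP libraries each exceeded both untreated ones in 27 of the 44, against 24% of all genes tested, and each lay under both in 5, against 24.8%.

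**Figure D1:**
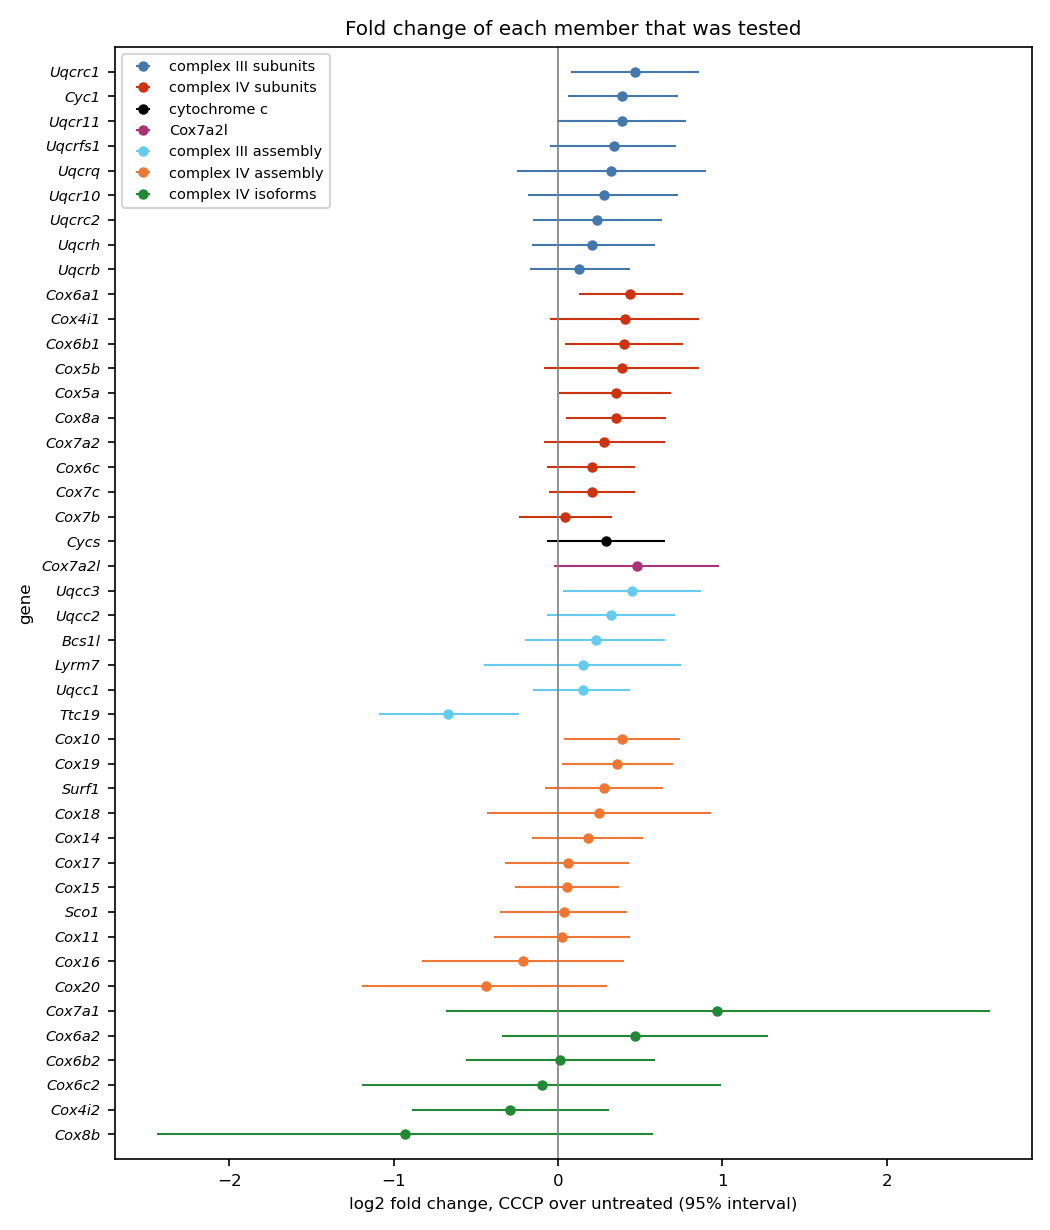
Log2 fold change of CCCP over untreated (horizontal axis) with its 95% interval for each of the 44 genes tested, coloured by role, with 2 libraries per group. The 19 subunits at the top lie between 0.044 and 0.47 on TMM scaling (1 of them, Cox7b, lies below 0 when libraries are scaled by total count alone, and 5 do when the exon-length trend is removed), Ttc19 lies at -0.67, and the isoforms at the bottom lie from -0.93 to 0.97 with the widest intervals.

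The ubiquitous subunits of both complexes had somewhat more transcript in the CCCP libraries, by a similar amount in each complex. All 9 of complex III and all 10 of complex IV had a log2 fold change above 0 on TMM scaling, whereas 18 of the 19 did with scaling by total count alone or without untreated replicate 1, and 14 of the 19 did once the trend of fold change with exon length was removed. The median log2 fold change was 0.32 for complex III and 0.35 for complex IV. The CCCP libraries lay above both untreated ones in 14 of the 19, against 24% of all genes and 29.5% to 34% in the 3 bins of exon length that hold them. An unadjusted p under 0.05 was found for 6 of the 19, all higher, against 5.45% of all genes. Erythroid marker transcripts, given above, had the same direction in 7 of 9 (5 of 9 without CCCP replicate 2). Of 12 skeletal muscle markers tested, 11 did (6 of 12 without untreated replicate 2). With the limits given above, all 11 liver, 5 of 6 endothelial and 7 of 9 haematopoietic markers had the opposite direction. The part of any of these cells in the subunit levels was not tested.

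Cyc1, which encodes the haem-carrying cytochrome c1 of complex III, had 92.9 and 111 CPM untreated and 127 and 141 CPM with CCCP. The groups did not overlap, and untreated replicate 1 was lowest. Its log2 fold change was 0.39 ± 0.137 (SE, n = 2 per group), with an adjusted p of 0.298 in edgeR's quasi-likelihood test.

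Uqcrc1, a core subunit on the matrix side, had the highest fold change among the complex III subunits. It had 141 and 185 CPM untreated and 218 and 235 CPM with CCCP. Both CCCP libraries lay above both untreated ones, with a log2 fold change of 0.47 ± 0.160 (SE, n = 2 per group) and an adjusted p of 0.289 in edgeR. Uqcrc1 is also annotated on an alternate contig, and multi-mapping reads were not counted.

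Its partner core subunit Uqcrc2 had 118 and 148 CPM untreated and 143 and 171 CPM with CCCP. Here the groups overlapped, since CCCP replicate 1 lay below untreated replicate 2, and the log2 fold change was 0.24 with a 95% interval of -0.15 to 0.63. Of the exon bases of Uqcrc2, 26.7% are shared with another gene, Pdzd9, and reads touching more than 1 gene were not counted.

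Uqcrfs1 encodes the Rieske protein, whose iron-sulfur cluster moves in carrying electrons to cytochrome c1. It had 66.6 and 83.1 CPM untreated and 86.4 and 103 CPM with CCCP, groups that were separate by a narrow margin. The log2 fold change was 0.34 with a 95% interval of -0.046 to 0.72.

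Uqcrb, a small subunit near the quinone pocket, had the lowest fold change of the complex III subunits. It had 45.2 and 47.2 CPM untreated and 53.9 and 47.4 CPM with CCCP. The groups were separate by a very narrow margin, since CCCP replicate 2 lay barely above untreated replicate 2. The log2 fold change was 0.13 with a 95% interval of -0.17 to 0.44, and it was -0.10 once the exon-length trend was removed and 0.46 once the GC trend was removed. The remaining small subunits Uqcr11, Uqcrq, Uqcr10 and Uqcrh had log2 fold changes from 0.21 (Uqcrh) to 0.39 (Uqcr11), and of these only Uqcr11 had separate groups. Uqcr10 shares 38.6% of its exon bases with Gm51883, so its level is uncertain.

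Cytochrome c itself, the shuttle between the complexes, had 32.3 and 40.3 CPM of Cycs untreated and 43.5 and 45.5 CPM with CCCP. The groups were separate, and the log2 fold change was 0.29 ± 0.148 (SE, n = 2 per group) with an adjusted p of 0.407 in edgeR.

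**Figure D2:**
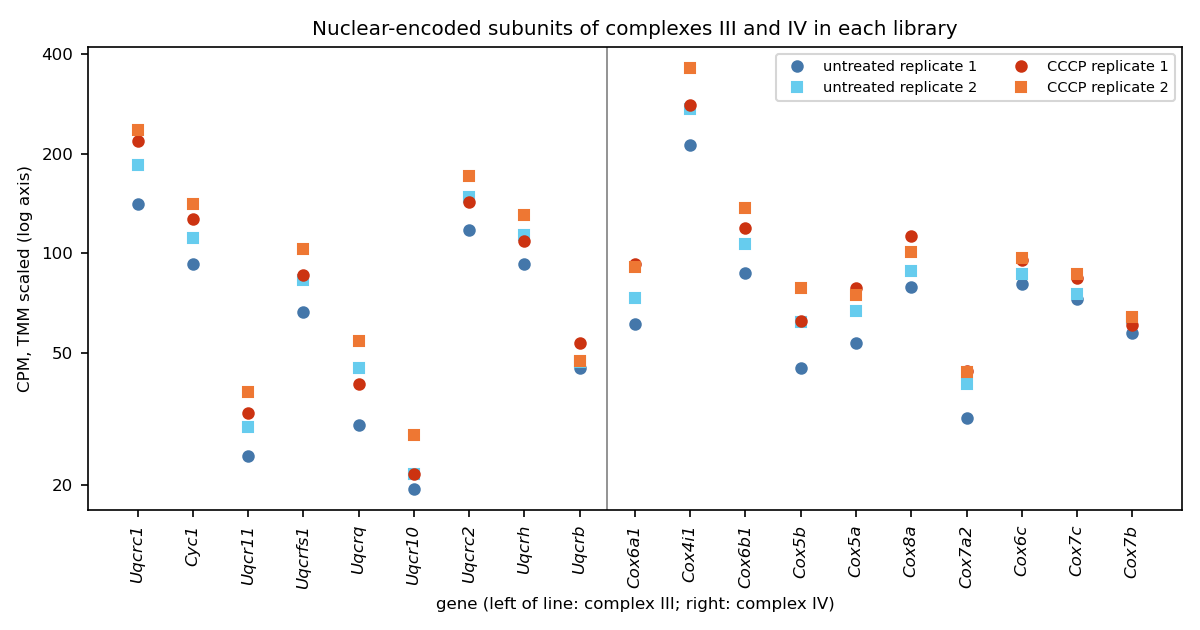
Level of each of the 19 ubiquitous nuclear-encoded subunits in each library, in CPM with TMM scaling on a log axis; circles are replicate 1 and squares replicate 2, blue untreated and red or orange CCCP. Untreated replicate 1 is the lowest point for every gene, and untreated replicate 2 lies close to or above CCCP replicate 1 for several, such as Uqcrc2 and Uqcrh.

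In complex IV, Cox6a1 had the highest fold change and the smallest adjusted p of all subunits. It had 61.5 and 73.6 CPM untreated and 92.8 and 91.1 CPM with CCCP, well apart. The log2 fold change was 0.44 ± 0.130 (SE, n = 2 per group), with a 95% interval of 0.13 to 0.76 and an adjusted p of 0.254 in edgeR.

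Cox4i1, the ubiquitous form of the largest nuclear-encoded subunit, had 212 and 272 CPM untreated and 281 and 362 CPM with CCCP. The groups were separate, but CCCP replicate 1 was close to untreated replicate 2, and the log2 fold change of 0.41 had a 95% interval of -0.046 to 0.86.

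Cox6b1, which faces the intermembrane space where cytochrome c docks, had 87.2 and 107 CPM untreated and 119.7 and 137 CPM with CCCP. The groups were separate, with a log2 fold change of 0.40 and an adjusted p of 0.31 in edgeR. Cox8a had 79.3 and 88.3 CPM untreated and 113 and 101 CPM with CCCP, again separate, with a log2 fold change of 0.35 and an adjusted p of 0.30.

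Cox7a2 had 32.0 and 40.5 CPM untreated and 44.3 and 44.0 CPM with CCCP. Its groups were separate, with a log2 fold change of 0.28, but 63% of its exon bases are shared with other genes (Tmem30a and Gm51685), so its level is uncertain.

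Cox7b had 57.7 and 63.8 CPM untreated and 60.8 and 64.5 CPM with CCCP. It was the subunit with the smallest difference and overlapping groups, at a log2 fold change of 0.044 with a 95% interval of -0.24 to 0.33. Its place depended on the fit, since the value was -0.15 with the length trend removed and 0.34 with the GC trend removed. Among the subunits not yet given, Cox5a and Cox5b had log2 fold changes of 0.35 and 0.39, and Cox6c and Cox7c 0.21 each, all with separate groups.

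The untreated replicates differed from each other in the same direction across the subunits. Untreated replicate 1 was the lowest library for 19 of the 19 subunits, against 31.7% of all genes. The median difference between untreated replicates 2 and 1 over the subunits was 0.29 on the log2 scale, against 0.0014 over all genes. In the CCCP group too, replicate 2 lay above replicate 1 in 14 of the 19 subunits, against 10329 of all 19837 genes. The median difference between CCCP replicates 2 and 1 was 0.15 over the subunits and 0.013 over all genes. For the subunits, the median difference between the group means was 0.34. The difference between groups exceeded the gap between the untreated libraries in 13 of the 19 subunits, or 68.4%, against 48.2% of all genes. Between the closest libraries, CCCP replicate 1 minus untreated replicate 2, the median was 0.14. Without untreated replicate 1 the median log2 fold change of the subunits was 0.20, and without untreated replicate 2 it was 0.54. Summed over the 19 subunits, the level was 1414 and 1723 CPM untreated and 1865 and 2086 CPM with CCCP.

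Fold change went with exon length over the whole table, and subunit transcripts are short. Spearman's rho between log2 fold change and exon length was -0.361 across 19837 genes, given as a description because the genes share the same 4 libraries. In 10 bins of about equal size by exon length, the median log2 fold change went from 0.22 in the shortest bin to -0.36 in the longest. The median exon length was 583 bases for the subunits, 12 of which lay in the shortest bin, 5 in the next and 2 in the third. In the shortest bin 29.5% of all genes had both CCCP libraries above both untreated ones, and 33.6% did in the next. Of the 19 subunits, 14 lay above the median of their own bin, by a median of 0.13 over all 19. With the length trend removed in the fit, the median log2 fold change of the subunits was 0.16, and the values of Uqcrb, Uqcrh, Cox6c, Cox7b and Cox7c lay below 0. Across the 17929 genes with a known GC content, Spearman's rho between log2 fold change and GC content was 0.369, and with the GC trend removed the median of the subunits was 0.29, with all 19 above 0. The part of RNA quality or library preparation in these trends was not tested.

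**Figure D3:**
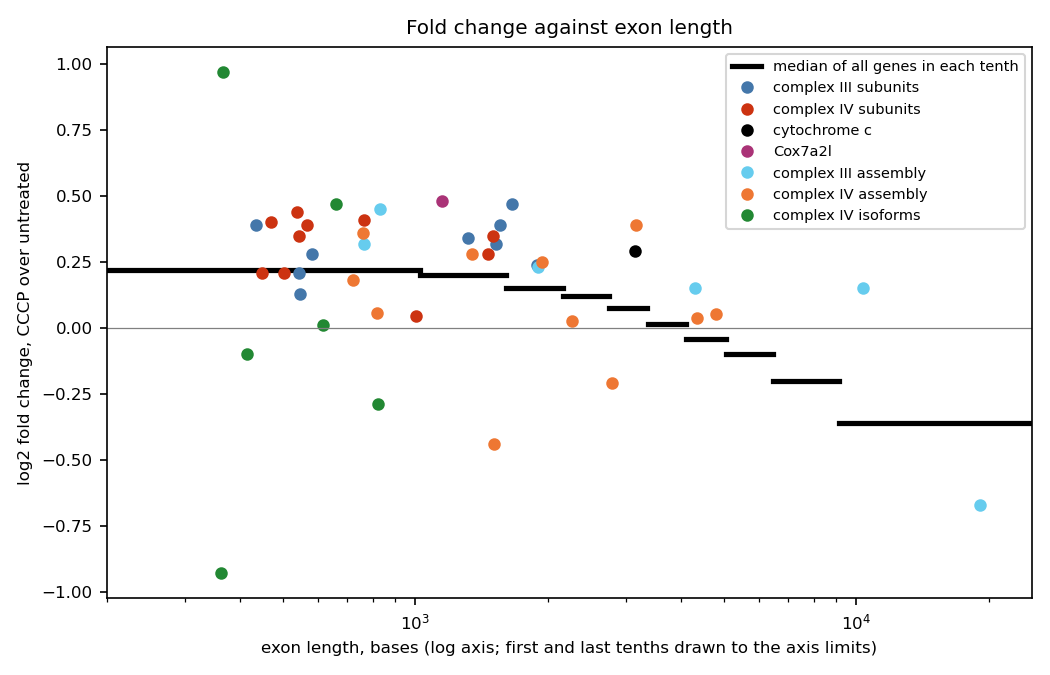
Log2 fold change of CCCP over untreated (vertical axis) against exon length in bases (log axis) for the 44 genes tested, coloured by role; black bars are the median of all genes in each of 10 length bins. The bars go from 0.22 to -0.36, the subunits sit among the shortest genes with 14 of 19 above their bin's bar, and Ttc19 is the gene at the far right, with 19069 exon bases.

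The promoters of these genes are shown because the nuclear subunits are known to share binding motifs of NRF1 and of the ETS factor GABP, regulators of respiratory chain genes. RefSeq start sites on GRCm38.p6, the assembly behind the build of the counts, gave a window from 250 bases before to 50 bases after the start for 35 of the 47 genes. Both strands were searched for TGCGCA (the core of NRF1 sites, the same on both strands), CCGGAAG (ETS), ATGGCGG (YY1) and AAGGTCA (the nuclear receptor ERR), and no matches of different motifs overlapped in these genes. The following are bases before the start site, 5′ to 3′ on the strand of the gene, with each match in capitals (CTTCCGG is the ETS motif on the other strand).
Uqcr11 (chr10:80406822-80406921, minus strand): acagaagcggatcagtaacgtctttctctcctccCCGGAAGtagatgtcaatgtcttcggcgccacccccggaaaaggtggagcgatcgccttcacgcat
Uqcrh (chr4:116075071-116075170, minus strand): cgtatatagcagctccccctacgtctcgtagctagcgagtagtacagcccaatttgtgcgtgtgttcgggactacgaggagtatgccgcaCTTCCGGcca
Cox5b (chr1:36691387-36691486, plus strand): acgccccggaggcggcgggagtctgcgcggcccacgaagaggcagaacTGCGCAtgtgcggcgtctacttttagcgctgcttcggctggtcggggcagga
Cox6a1 (chr5:115348959-115349096, minus strand): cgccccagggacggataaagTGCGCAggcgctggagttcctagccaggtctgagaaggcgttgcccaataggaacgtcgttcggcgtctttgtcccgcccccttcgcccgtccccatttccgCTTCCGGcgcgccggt
Cox6b1 (chr7:30626115-30626214, minus strand): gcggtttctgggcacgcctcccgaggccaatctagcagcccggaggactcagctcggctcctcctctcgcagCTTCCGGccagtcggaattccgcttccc
Uqcc2 (chr17:27133892-27133995, minus strand): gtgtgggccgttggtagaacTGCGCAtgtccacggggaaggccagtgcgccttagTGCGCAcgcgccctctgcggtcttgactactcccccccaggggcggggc
Sco1 (chr11:67052570-67052669, plus strand): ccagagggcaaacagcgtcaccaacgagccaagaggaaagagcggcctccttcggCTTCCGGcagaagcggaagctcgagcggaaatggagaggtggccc
Cox7b (chrX:106015600-106015699, plus strand): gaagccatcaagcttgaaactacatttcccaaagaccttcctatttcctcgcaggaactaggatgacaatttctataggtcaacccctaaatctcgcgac

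Uqcr11, Uqcrh, Cox6b1 and Sco1 carry an ETS match between 10 and 66 bases before the start, Cox5b an NRF1 match at 52 bases, and Uqcc2 NRF1 matches at 84 and 49 bases. Cox6a1, the subunit with the smallest adjusted p, has an NRF1 match at 118 bases and an ETS match at 16 bases. Cox7b, the subunit with the smallest fold change, has none in its window, which says only that these letters are not there. The windows of Uqcr10, Uqcrfs1, Cox5a, Cox7a2 and Cox7c have none either, and their log2 fold changes ran from 0.21 (Cox7c) to 0.35 (Cox5a). Among subunits with a match the values ran from 0.21 (Uqcrh) to 0.47 (Uqcrc1). The ETS letters were present in 38.9% of the 36 windows of these genes, in 38.5% of the 13 subunit windows and in 52.9% of the 17 assembly factor windows, against 8.86% of all 32851 windows and 13.8% of the 18036 windows of genes tested. TGCGCA was in 11.1% of the 36 windows against 11.4% of windows of genes tested, ATGGCGG in 8.33% against 6.32%, and AAGGTCA in 2.78% against 3.6%. No match of any of the 4 was in the 4 windows of tissue isoforms. The median log2 fold change was 0.23 over the 13 tested genes with the ETS letters and 0.29 over the 20 without. For TGCGCA it was 0.42 over the 4 genes with a match (Uqcrc1, Cox5b, Cox6a1 and Uqcc2, from 0.32 to 0.47) and 0.23 over the 29 without. For ATGGCGG it was -0.44 over the 3 genes with a match (Ttc19, Cox20 and Cox10, of mixed sign from -0.67 to 0.39) and 0.28 over the 30 without. No test was made on so few. Matches are a description of letters and not of binding.

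The assembly factors, which build the complexes but are not part of them, had smaller fold changes at the median than the subunits, and their directions were mixed. Of the 17 tested, 14 had a log2 fold change above 0 on TMM scaling (11 with scaling by total count alone or with the length trend removed, 12 without untreated replicate 1 or without CCCP replicate 2, 13 without CCCP replicate 1, 15 with the GC trend removed). The median was 0.15. Both CCCP libraries were above both untreated ones in 9 of the 17, against 24% of all genes, and below in 3, against 24.8%. The median log2 level of subunits less that of assembly factors was 1.75 and 1.89 untreated and 2.05 in each CCCP library. The medians of the fold changes differed by 0.19 (subunits minus assembly factors). That value was 0.052 with the length trend removed, 0.039 without CCCP replicate 2 and 0.33 without untreated replicate 2, so its size depended on the length trend and on single libraries; the median exon length of the assembly factors was 1934 bases.

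Among the factors of complex III, Ttc19 was the gene that stood furthest from 0. Ttc19 clears fragments of the Rieske protein from complex III after that protein has been inserted. It had 49.5 and 36.8 CPM untreated and 28.2 and 26.2 CPM with CCCP. Both CCCP libraries were below both untreated ones, and the untreated libraries themselves were far apart. The log2 fold change was -0.67 ± 0.175 (SE, n = 2 per group), with a 95% interval of -1.09 to -0.24 and adjusted p-values of 0.228 in edgeR and 0.0601 in DESeq2. Ttc19 has 19069 exon bases in this annotation, in the longest bin, and with the length trend removed its log2 fold change was -0.23. Of those bases 19% are shared with other genes (Ncor1 and Gm12275).

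Uqcc3, which acts early in the assembly of cytochrome b, had the highest fold change of these factors. It had 14.2 and 17.0 CPM untreated and 20.9 and 21.7 CPM with CCCP, separate groups. The log2 fold change was 0.45 ± 0.171 (SE, n = 2 per group) with an adjusted p of 0.323 in edgeR. Uqcc1 and Uqcc2, which act together in the synthesis of cytochrome b, had log2 fold changes of 0.15 and 0.32, also with separate groups. With the length trend removed the values were 0.24 for Uqcc3, 0.12 for Uqcc2 and 0.43 for Uqcc1, which like Ttc19 lies in the longest bin, so the order of these factors depended on that trend.

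Bcs1l moves the folded Rieske protein across the inner membrane into complex III. It had 12.7 and 14.7 CPM untreated and 15.9 and 16.2 CPM with CCCP, separate groups with a log2 fold change of 0.23 and a 95% interval of -0.20 to 0.65. Lyrm7, the matrix chaperone of the Rieske protein, had 4.49 and 4.94 CPM untreated and 5.58 and 4.85 CPM with CCCP, overlapping groups with an interval of -0.45 to 0.75. Among the Rieske protein's own transcript and those of these factors and Ttc19, only Ttc19 had a log2 fold change below 0. The 95% intervals of Uqcrfs1, Bcs1l and Lyrm7 included 0, and differences between these genes were not tested.

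Of the 11 complex IV factors tested, Cox10, Cox19, Surf1, Cox18 and Cox14 had log2 fold changes of 0.18 to 0.39, Cox17, Cox15, Sco1 and Cox11 of 0.025 to 0.058, and Cox16 and Cox20 lay below 0; none passed the test. Cox10, the farnesyltransferase that starts the making of haem A, had 20.4 and 22.2 CPM untreated and 27.0 and 28.7 CPM with CCCP. Its groups were separate with little spread, and the log2 fold change was 0.39 ± 0.143 (SE, n = 2 per group) with an adjusted p of 0.314 in edgeR.

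Cox15, which carries out the next step of haem A synthesis, had 35.2 and 39.0 CPM untreated and 39.8 and 37.2 CPM with CCCP. Here the values overlapped between groups, with a log2 fold change of 0.054 and a 95% interval of -0.26 to 0.37. Surf1, which takes part in placing haem in COX1, had 20.5 and 20.8 CPM untreated and 23.8 and 26.5 CPM with CCCP, separate groups with a log2 fold change of 0.28 and an interval of -0.079 to 0.64.

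Of the copper factors, Cox17, the copper chaperone of the intermembrane space, had 17.5 and 18.5 CPM untreated and 18.6 and 18.9 CPM with CCCP, all 4 libraries being close. Its log2 fold change was 0.058 with a 95% interval of -0.32 to 0.43.

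Cox19, a further small copper-pathway protein of that space, had 22.8 and 25.2 CPM untreated and 30 and 31.7 CPM with CCCP. Its groups were separate, with a log2 fold change of 0.36 ± 0.140 (SE, n = 2 per group) and an adjusted p of 0.325 in edgeR, and 0.14 with the length trend removed. The 95% interval of 0.022 to 0.70 overlapped that of Cox17, and differences between these genes were not tested. Sco1, which delivers copper to COX2, had 19.8 and 20.3 CPM untreated and 19.2 and 22.0 CPM with CCCP, overlapping groups with an interval of -0.35 to 0.42.

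Cox11, which delivers copper to COX1, had 14.5 and 15.2 CPM untreated and 14.4 and 15.9 CPM with CCCP, again overlapping, with an interval of -0.39 to 0.44. Sco2 had 0 and 0 counts untreated and 2 and 0 counts with CCCP and was not tested. Since 94.4% of its exon bases are shared with Tymp and Ncaph2, and shared reads were not counted, the count says little of its transcript.

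Cox20, a chaperone of newly made COX2, was the lowest of the complex IV factors. It had 2.99 and 2.62 CPM untreated and 2.14 and 1.98 CPM with CCCP, separate groups at a low level. The log2 fold change was -0.44 with a 95% interval of -1.19 to 0.30, and 26% of its exon bases are shared with Hnrnpu. Cox20 is also annotated on an alternate contig, and multi-mapping reads were not counted. The effect of this on its level was not tested. Cox16, which also acts on COX2, had a log2 fold change of -0.21 with separate groups and shares 85.1% of its exon bases with Gm20498, and Cox14 and Cox18 had log2 fold changes of 0.18 and 0.25.

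Cox7a2l, related to Cox7a2 in sequence, is known as a factor that joins complexes III and IV into supercomplexes, and C57BL/6J mice are known to carry a shortened allele impaired in that role. It had 118 and 169 CPM untreated and 177 and 222 CPM with CCCP. The groups were separate, but the untreated libraries were further apart than untreated replicate 2 and CCCP replicate 1, and the log2 fold change was 0.48 ± 0.206 (SE, n = 2 per group) with an adjusted p of 0.355 in edgeR. Per kb of exon, Cox7a2l had 4.68 and 5.29 times the level of Cox7a2 untreated and 5.08 and 6.41 times with CCCP, ratios that overlap between the groups and carry the uncertainty of Cox7a2 given above.

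Most isoforms had low levels or 0 counts, Cox6b2 being the exception, and they showed no common direction. Of the 8 with Cox6c2 included, 6 were tested, 3 had a log2 fold change above 0 and 3 below on TMM scaling (2 above with scaling by total count alone, with the length or GC trend removed or without untreated replicate 1). The median was -0.043.

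Cox4i2, the form of Cox4 known from lung and from low oxygen, had 5.21 and 5.80 CPM untreated and 4.18 and 4.82 CPM with CCCP. The CCCP libraries were both lower, with a log2 fold change of -0.29 and a 95% interval of -0.89 to 0.31. Per kb of exon, there were 2.28 and 1.98 units of Cox4i2 for each 100 of Cox4i1 untreated and 1.38 and 1.24 with CCCP, and the groups did not overlap.

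Pericytes are a known source of Cox4i2. Over 10 markers of pericytes and smooth muscle the summed level was 677 and 536 CPM untreated and 641 and 673 CPM with CCCP, which overlap. Of the 9 tested, 4 were higher and 5 lower; Rgs5 had 31.4 and 30.1 CPM untreated and 27.2 and 23.8 CPM with CCCP, and Abcc9 37.2 and 26.5 against 20.6 and 13.6. In the other direction, Cnn1, Acta2 and Pdgfrb had log2 fold changes of 1.03, 0.50 and 0.22. The smooth muscle gene Tagln was at 0.0618 to 0.299 CPM, a level that is uncertain because exon bases shared with other genes were not checked for the markers. The part of these cells in the level of Cox4i2 was not tested.

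Cox6a2, Cox7a1 and Cox8b are the forms of heart and skeletal muscle. Cox6a2 had 1.58 and 1.52 CPM untreated and 2.24 and 2.04 CPM with CCCP, separate groups with a log2 fold change of 0.47 and a 95% interval of -0.34 to 1.28. Its ratio to Cox6a1 per kb overlapped between the groups, at 2.09 and 1.69 per 100 untreated and 1.97 and 1.83 with CCCP.

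Cox7a1 had 16 and 8 counts untreated and 16 and 27 counts with CCCP. Scaled, its levels were 0.319 and 0.214 CPM untreated and 0.329 and 0.744 CPM with CCCP, separate by a narrow margin. Its log2 fold change of 0.97 had a 95% interval of -0.68 to 2.63. Cox8b had 20 and 20 counts untreated and 14 and 7 counts with CCCP, a log2 fold change of -0.93 with an interval of -2.44 to 0.58. The counts of both genes are too few to set a direction.

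Skeletal muscle markers were measured beside these. Their summed level over 13 genes was 593 and 422 CPM untreated and 613 and 591 CPM with CCCP, which overlap. Of the 12 tested, 11 were higher with a median of 0.25, but without untreated replicate 2 this was 6 of 12 with a median of 0.051. Acta1, the skeletal muscle actin, had 37.5 and 34.8 CPM untreated and 68.2 and 71.3 CPM with CCCP, while Ckm, the muscle creatine kinase, was at 0.02 to 0.193 CPM. The 5 cardiac markers summed to 25 and 19.5 CPM untreated and 23.7 and 23.3 CPM with CCCP, with 3 above 0 and 2 below (Myh6 at -0.70). The part of muscle cells in the isoform levels was not tested.

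Cox6b2, Cox7b2 and Cox8c are known as forms of the testis. Cox6b2 was the most abundant isoform, with 13.0 and 18.4 CPM untreated and 14.0 and 17.6 CPM with CCCP. The groups overlapped fully, with a log2 fold change of 0.013 and an interval of -0.56 to 0.59. Relative to Cox6b1 per kb, it stood at 11.3 and 13.1 per 100 untreated and 8.94 and 9.81 with CCCP, which do not overlap, with Cox6b1 at higher levels under CCCP.

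Cox7b2 and Cox8c had 0 counts in every library, which allows up to 0.0614 to 0.0803 CPM by the library (3 counts, counting error only). The germ cell gene Tnp1 was also at 0 and Ddx4 at 0.496 to 0.938 CPM. The pseudogene Cox6c2 had 43 and 32 counts untreated and 44 and 25 with CCCP, close in all libraries for their depth.

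**Figure D4:**
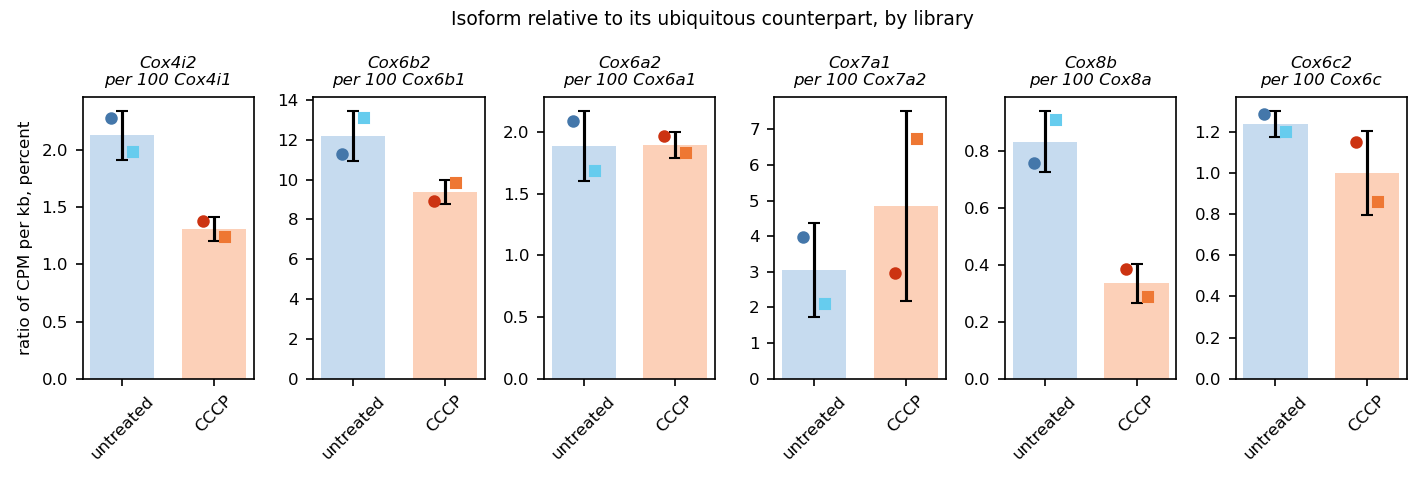
Level of 5 isoforms and of the pseudogene Cox6c2 per 100 of the ubiquitous counterpart, in CPM per kb of exon, in each library; bars are means and error bars the SD of 2 libraries per group, blue untreated and orange CCCP. Cox4i2, Cox6b2, Cox8b and Cox6c2 are lower relative to their counterpart in both CCCP libraries, whereas Cox6a2 and Cox7a1 overlap. Cox7a1, Cox8b and Cox6c2 had only 7 to 44 counts in a library, too few to set a direction. The counterparts themselves had log2 fold changes from 0.21 (Cox6c) to 0.44 (Cox6a1).

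Levels were compared between genes per kb of exon, which is a rough scale. The length holds all annotated exon bases of a gene, whichever of them are expressed. Reads on bases shared with another gene were not counted, so genes such as Cox16 (85.1% shared) can be understated. On that scale, as the mean of 4 libraries, Cox4i1 was highest at 369 CPM per kb, followed by Cox6b1 at 239, Uqcrh at 204, Cox6c at 179 and Cox7c at 178. Uqcrq at 27.9 and Cox7a2 at 27.6 were the lowest subunits, and Cycs had 12.8. The place of Cox7a2 is uncertain, since 63% of its exon bases are shared with other genes. The assembly factors tested ran from 1.15 for Lyrm7 to 44.7 for Uqcc2, and all but Uqcc2, Cox19 and Cox14 lay below the lowest subunit. Among the isoforms, Cox6b2 had 25.5, Cox4i2 6.08, Cox6a2 2.80, Cox6c2 1.99, Cox7a1 1.10 and Cox8b 0.974. Cox6c and Cox7c were as close to each other as the spread of their libraries, as were Uqcrq and Cox7a2.

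**Figure D5:**
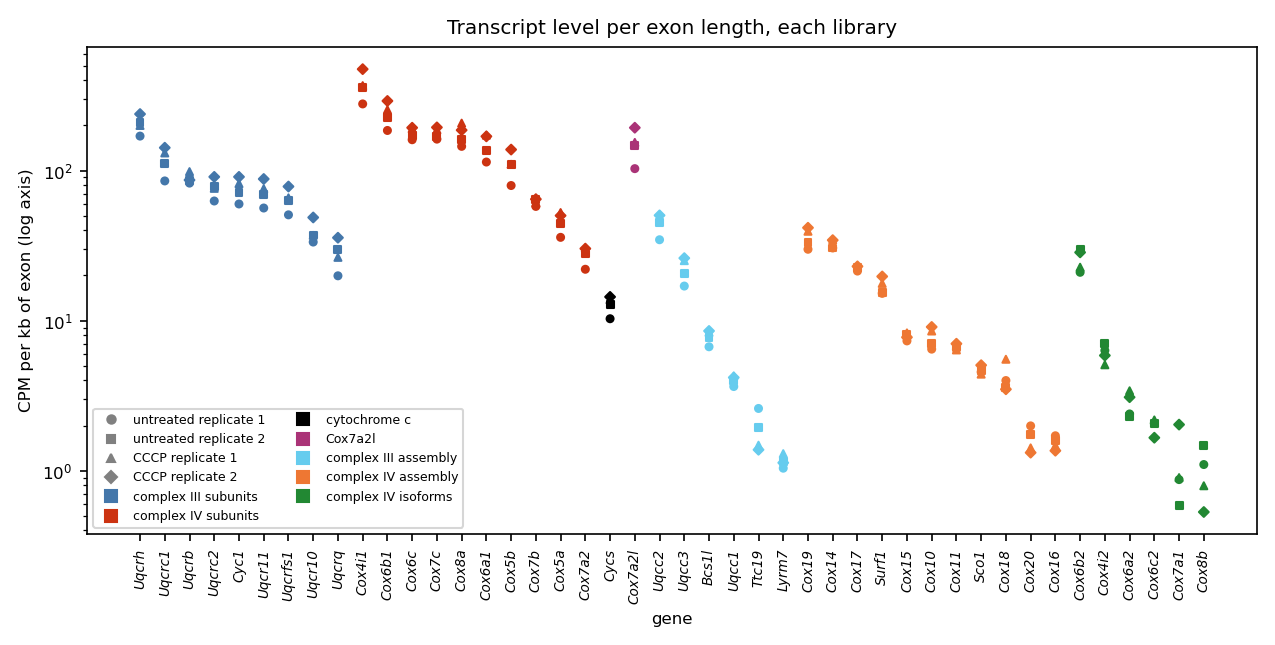
Level of each gene tested in CPM per kb of exon (log axis), ordered within each role by the mean; marker shape gives the library and colour the role. Subunits lie mostly above 20 CPM per kb and isoforms other than Cox6b2 below 10.

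Of the subunits encoded in the mitochondrial genome, those counted deeply had levels that overlapped between the groups. COX1 had 8091 and 8708 CPM untreated and 8333 and 9557 CPM with CCCP, and CYTB, the cytochrome b of complex III, 3906 and 3521 against 3941 and 3249. Their log2 fold changes were 0.091 (95% interval -0.37 to 0.55) and -0.047 (-0.49 to 0.40). COX1 stood at 5.72 and 5.05 times the summed level of the 19 nuclear subunits of both complexes untreated and at 4.47 and 4.58 times with CCCP, which do not overlap. Against the complex IV subunits alone the ratios were 10.3 and 9.3 untreated and 8.07 and 8.4 with CCCP. CYTB stood at 6.19 and 4.48 times the summed complex III subunits untreated and at 4.74 and 3.43 times with CCCP, which overlap. COX2 and COX3 had between 433 and 1086 counts in a library, far below COX1, so their counting is uncertain. COX2 had a log2 fold change of 0.031. COX3 had 8.64 and 12.3 CPM untreated and 22.4 and 16.4 CPM with CCCP, separate groups with a log2 fold change of 0.89 and a 95% interval of 0.27 to 1.51. Its adjusted p was 0.248 in edgeR with the filter, 0.00569 in edgeR without it and 0.0474 in DESeq2.

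A list of 24 other nuclear genes of these complexes was described beside them. Of the 23 tested, 18 had a log2 fold change above 0 (18 with scaling by total count alone, 13 without untreated replicate 1, 11 with the length trend removed), 9 had CCCP libraries above both untreated ones (24% of all genes) and 2 below (24.8%). None passed in edgeR with the filter or in DESeq2, and 3 were higher (5.45% of all genes) and 0 lower at an unadjusted p under 0.05. With no filter edgeR called Chchd2, at an adjusted p of 0.0338. The median was 0.14. Ndufa4, a further complex IV subunit, had a log2 fold change of 0.23, and its low-oxygen relative Ndufa4l2 -0.31. Chchd2, which binds complex IV, was highest at 0.48, and Oxa1l, the inner membrane insertase, was at 0.36. Pet117 had 0 counts in every library.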

How the data were processed

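RNA of 4 AGM explant libraries, 2 untreated and 2 with CCCP, was analysed from the deposited raw counts of reads per gene. The authors made these with featureCounts 2.0.3 against mm10 RefSeq, per the file headers, with no strand option, no fragment counting, and neither multi-mapping reads nor reads touching more than 1 gene counted. HISAT2 and SAMtools are named in the submitters' processing notes. Genes with near-identical copies are therefore uncertain, as are overlapping genes: 14 of the 47 genes share exon bases with another gene. The deposited gene lengths, exon bases per gene in the authors' tables and not a measurement, were recomputed from the exon coordinates without alternate contigs, which changed 2040 of the 49997 genes. GC content was from GENCODE transcripts.

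Total counts were 48216849, 37360968, 48827826 and 37579087 (untreated 1 and 2, CCCP 1 and 2). A count of 3 was taken as the floor. The main test was edgeR 4.0.16 (quasi-likelihood, two-sided) in R 4.3.3 with TMM scaling, filterByExpr (minimum count 10, total 15), group as the sole term, and Benjamini-Hochberg adjustment over 19837 genes at 0.05. The SE is the log2 fold change over the square root of F. With 2 libraries per group no exact permutation test can go below p = 0.333, so none is given. The code was tested on simulated data. Alternatives were DESeq2 1.42.0, other scalings, no filter, a replicate block, removal of a length or GC trend, and leaving out each library. Genes given in every library were the catalytic and core subunits, the isoform sets, the named copper, haem and Rieske factors, and the highest and lowest fold change in each role. The members, gene lists and rule were chosen with earlier results of these data known.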

Additional observations from a re-analysis of the deposited data

How the results depend on the processing

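No direction of the subunit or assembly medians turned under any alternative run, but their size moved. The subunit median of 0.34 was 0.16 with the exon-length trend removed and ran from 0.20 to 0.54 when each library was left out. The assembly factor median of 0.15 was 0.092 with scaling by total count alone and ran from 0.09 to 0.21 without each library. Their difference of 0.19 was 0.052 with the length trend removed and 0.11 with the GC trend removed, and ran from 0.039 to 0.33 without each library; CCCP replicate 2 gave the lowest value and untreated replicate 2 the highest. Where a group was left with 1 library, its spread was taken to equal that of the other group.

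The number of genes called was 0 in edgeR with TMM, RLE or total count scaling or with the length or GC trend removed, 594 in DESeq2 (59 higher, 535 lower), 1107 with no filter beyond 1 count (217 higher, 890 lower; 3.43% of genes) and 10 to 46 without each library. Called among the 44 genes were 3 with no filter (Ttc19, Uqcrc1 and Cox7a2l) and 0 under the other unblocked alternatives. The cause of these differences was not tested.

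Replicate numbers are shared by the groups, but the labels do not say that they pair libraries, and with 2 numbers the data cannot show it; the correlation of same-numbered deviations was 0.36. A fit with the replicate block called 2118 genes (754 higher, 1364 lower; 10.7%) and 8 of the 44 (Ttc19, Cyc1, Uqcrc1, Cox7a2l, Cox4i1, Cox5b, Cox6a1 and Cox6b1), and Chchd2, Higd2a and Oxa1l among the other 23 nuclear genes. Blocked and corrected for length, the fit called 1569 genes (7.91% of 19837) and 2 of the 44 (Uqcc1 and Uqcrc1). Its subunit median was 0.16 and its assembly median 0.10, with a difference of 0.064. Blocked and corrected for GC, the fit called 768 genes (4.28% of 17929) and 4 of the 44 (Ttc19, Cox7a2l, Cox7a2 and Cycs). The difference was then 0.11.

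Single genes near 0 changed sign. With the length trend removed, without and with the block, log2 fold changes were -0.10 and -0.11 for Uqcrb, -0.023 and -0.023 for Uqcrh, -0.08 and -0.081 for Cox11, -0.05 and -0.046 for Cox14, -0.16 and -0.16 for Cox17, -0.21 and -0.21 for Cox6b2, -0.033 and -0.033 for Cox6c, -0.15 and -0.15 for Cox7b, and -0.025 and -0.022 for Cox7c. With the GC trend removed, without and with the block, they were 0.076 and 0.076 for Cox16 and -0.12 and -0.11 for Cox6b2. With total count scaling they were -0.033 for Cox11, -0.0016 for Cox15, -0.022 for Sco1, -0.042 for Cox6b2 and -0.013 for Cox7b. Without untreated replicate 1 they were -8.2e-05 for Cox11, -0.0097 for Cox15, -0.21 for Cox6b2 and -0.018 for Cox7b. Without CCCP replicate 2 they were -0.037 for Cox11, -0.057 for Sco1, -0.15 for Cox6b2 and 0.09 for Cox6c2, and without CCCP replicate 1 Cox18 was at -0.12. Over the fits without each library, Cox18 reached 0.55, Sco1 0.14 and Cox6b2 0.32, and Cox6c2 was as low as -0.31. Depth limits Cox7a1, Cox8b and Cox6c2, with 7 to 44 counts in a library.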
